A study of Mus musculus with 4 samples.

Results

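The core circadian clock genes are 10 genes, Arntl, Clock, Npas2, Nr1d1, Nr1d2, Per1, Per2, Per3, Cry1 and Cry2, taken by symbol from the 25636 genes listed for the kidney of lupus-prone and control mice. All 10 were found, and all 10 had UMIs (unique molecular identifiers, each standing for 1 captured RNA molecule) in every library. Nuclei of renal cortex were profiled by droplet-based 3′ RNA sequencing, with 1 library from each of 4 groups of female mice: MRL/lpr at 10 weeks, C57BL/6 at 10 weeks, MRL/lpr at 6 weeks and C57BL/6 at 6 weeks. MRL/lpr mice bear the lpr mutation in Fas, which encodes a receptor for cell death, and get a kidney inflammation resembling human lupus; C57BL/6 is a common laboratory strain. No group had the MRL background with a normal Fas gene, so Fas and the rest of the strain background cannot be told apart. Neither the number of mice behind a library nor the hour of tissue collection is stated in the labels. Clock gene levels change with the hour of the day, so the hour, the strain and the age cannot be told apart either.

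The mammalian clock is a feedback loop of transcription. BMAL1 (the product of Arntl) pairs with CLOCK or NPAS2 and switches on genes through E-box sequences, among them the Per and Cry genes and the Rev-erb genes Nr1d1 and Nr1d2. PER and CRY proteins then hold back that pair, and the REV-ERB proteins repress Arntl, Npas2 and Cry1 through elements that the ROR proteins activate, so in kidney, as in liver, transcripts of Arntl and of Nr1d1 peak at about opposite hours.

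To show these elements beside the values, promoter windows from RefSeq on the mouse build GRCm38.p6 were searched on both strands, each window holding 250 bases before and 50 bases from an annotated start. Of the members, 9 had a window, 13 windows in all, and Per2 had none in the table. The E-box CACGTG was in 7.15% of all 32851 windows, the E′-box CACGTT in 4.68%, the D-box TTATGTAA in 0.938% and the ROR and REV-ERB element TAGGTCA or TGGGTCA in 6.45%. The stretches below are of Arntl, Npas2, Nr1d1 and the Per gene with most UMIs in the proximal tubule, which is Per3. For Nr1d1, Per3 and Npas2 they are the 250 bases before the start, and for Arntl the 27 bases around its only match. Each is written 5′ to 3′ on the strand of the gene, with matches in capitals.
Arntl (chr7:113207531-113207557, + strand), capitals mark the ROR and REV-ERB element: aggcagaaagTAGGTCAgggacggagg
Nr1d1 (chr11:98775378-98775627, - strand), capitals mark the E′-box read from the other strand: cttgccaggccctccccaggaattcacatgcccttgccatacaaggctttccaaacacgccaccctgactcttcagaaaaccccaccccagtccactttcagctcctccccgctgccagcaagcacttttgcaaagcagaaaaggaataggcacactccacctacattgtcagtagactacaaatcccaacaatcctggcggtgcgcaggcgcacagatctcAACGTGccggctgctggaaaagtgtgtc
Per3 (chr4:151044666-151044915, - strand), capitals mark the D-boxes: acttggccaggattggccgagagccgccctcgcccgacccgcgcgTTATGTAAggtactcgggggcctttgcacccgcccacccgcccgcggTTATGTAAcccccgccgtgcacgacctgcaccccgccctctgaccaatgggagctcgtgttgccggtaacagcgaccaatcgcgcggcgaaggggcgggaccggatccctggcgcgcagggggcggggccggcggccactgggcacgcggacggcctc
Npas2 (chr1:39194022-39194271, + strand), no match: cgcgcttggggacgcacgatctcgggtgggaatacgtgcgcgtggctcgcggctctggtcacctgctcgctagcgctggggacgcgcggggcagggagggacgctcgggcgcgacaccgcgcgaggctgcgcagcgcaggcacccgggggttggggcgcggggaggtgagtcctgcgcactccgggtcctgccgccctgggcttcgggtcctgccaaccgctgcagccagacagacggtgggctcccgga

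The Arntl element starts at position 31 from the second annotated start of the gene, inside the transcript. The Nr1d1 E′-box starts at position -28, and the Per3 D-boxes, the element bound by DBP and its relatives, start at positions -205 and -158. Among the members not printed, Per1 held an E-box at position -166, Cry1 an E-box at -60 and an E′-box at -79, and Cry2 an E′-box at -166. None of these letters were in the windows of Clock, Nr1d2 or Npas2. A match is a run of letters and not a measured binding site.

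Of 39074 barcodes, 35692 were kept, with 8662 to 9147 nuclei, 5787376 to 6590957 UMIs and a median of 561 to 693 UMIs per nucleus in each library. Each pair of libraries shared 112 to 143 barcode sequences, 1.20 to 1.41% of a library. From marker UMIs, 31349 nuclei were set to proximal tubule, thick ascending limb, distal tubule, collecting duct or endothelium, with 323 to 5446 nuclei for each class and library. The clock genes took no part in setting the classes. UMIs were summed per class and library and are given also as CPM, UMIs per 1000000 UMIs of that class and library. With 1 library a group no test was possible. The 95% intervals are exact Poisson intervals for levels and conditional exact binomial intervals for ratios. They cover counting error only, not the spread between mice. A gene was compared in a class where its 4 libraries there summed to 50 UMIs or more, and a ratio counts as apart when it reaches 2-fold.

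The proximal tubule, the bulk of the cortex and the class with most UMIs, gave all 10 members at least 50 UMIs. At 10 weeks 7 of the 10 members were at least 2-fold apart between MRL/lpr and C57BL/6, against 10.6% of the 12005 genes compared. At 6 weeks 5 of 10 were, against 8.97% of these genes. For 5 members, Arntl, Npas2, Nr1d1, Nr1d2 and Cry1, the ratio was at least 2-fold at both ages and in opposite directions, which held for 0.342% of all genes (41 genes). The median log2 ratio of the members was -0.53 at 10 weeks and 0.35 at 6 weeks, beside 0.06 and -0.01 over all genes.

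Among the activators, Arntl had 128 UMIs in MRL/lpr at 10 weeks, 494 in C57BL/6 at 10 weeks, 765 in MRL/lpr at 6 weeks and 277 in C57BL/6 at 6 weeks, or 30.8, 138, 162 and 78.0 CPM in the same order. Ranked by level, each library differed from the next beyond counting error, with MRL/lpr at both ends. At 10 weeks Arntl was 4.49-fold lower in MRL/lpr than in C57BL/6 (3.69 to 5.50), and at 6 weeks it was 2.07-fold higher (1.80 to 2.39). Npas2, the paralog of Clock that can take its place beside BMAL1, had 98 UMIs in MRL/lpr at 10 weeks, 733 in C57BL/6 at 10 weeks, 737 in MRL/lpr at 6 weeks and 237 in C57BL/6 at 6 weeks. It was 8.70-fold lower in MRL/lpr at 10 weeks (7.04 to 10.9) and 2.33-fold higher in MRL/lpr at 6 weeks (2.01 to 2.71). The strain ratios of Npas2 had the directions of those of Arntl, but its highest library was C57BL/6 at 10 weeks (205 CPM) and not MRL/lpr at 6 weeks (156 CPM).

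Clock, whose protein is the usual partner of BMAL1 and whose transcript is known to cycle little in many tissues, stayed level. It had 525, 493, 666 and 477 UMIs in MRL/lpr at 10 weeks, C57BL/6 at 10 weeks, MRL/lpr at 6 weeks and C57BL/6 at 6 weeks, which is 126, 138, 141 and 134 CPM. The highest library was 1.11-fold above the lowest, with an interval that includes 1 (0.992 to 1.25). The MRL/lpr over C57BL/6 ratio was 0.916 at 10 weeks (0.808 to 1.04) and 1.05 at 6 weeks (0.930 to 1.18), so a 2-fold difference lies outside both intervals.

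The REV-ERB genes went the opposite way to Arntl. Nr1d1 had 172 UMIs in MRL/lpr at 10 weeks, 23 in C57BL/6 at 10 weeks, 13 in MRL/lpr at 6 weeks and 49 in C57BL/6 at 6 weeks. It was 6.43-fold higher in MRL/lpr at 10 weeks (4.15 to 10.4) and 5.02-fold lower in MRL/lpr at 6 weeks (2.68 to 10.1). Of the members it had the widest range, with 15.1 times the level in MRL/lpr at 10 weeks as in MRL/lpr at 6 weeks (8.58 to 28.9). Its paralog Nr1d2 had 74.3 CPM in MRL/lpr at 10 weeks, 28.0 in C57BL/6 at 10 weeks, 17.3 in MRL/lpr at 6 weeks and 69.5 in C57BL/6 at 6 weeks. Nr1d2 kept the order of Nr1d1, but its top libraries, MRL/lpr at 10 weeks and C57BL/6 at 6 weeks, did not differ beyond counting error, while for Nr1d1 they did (41.4 and 13.8 CPM).

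**Figure D1:**
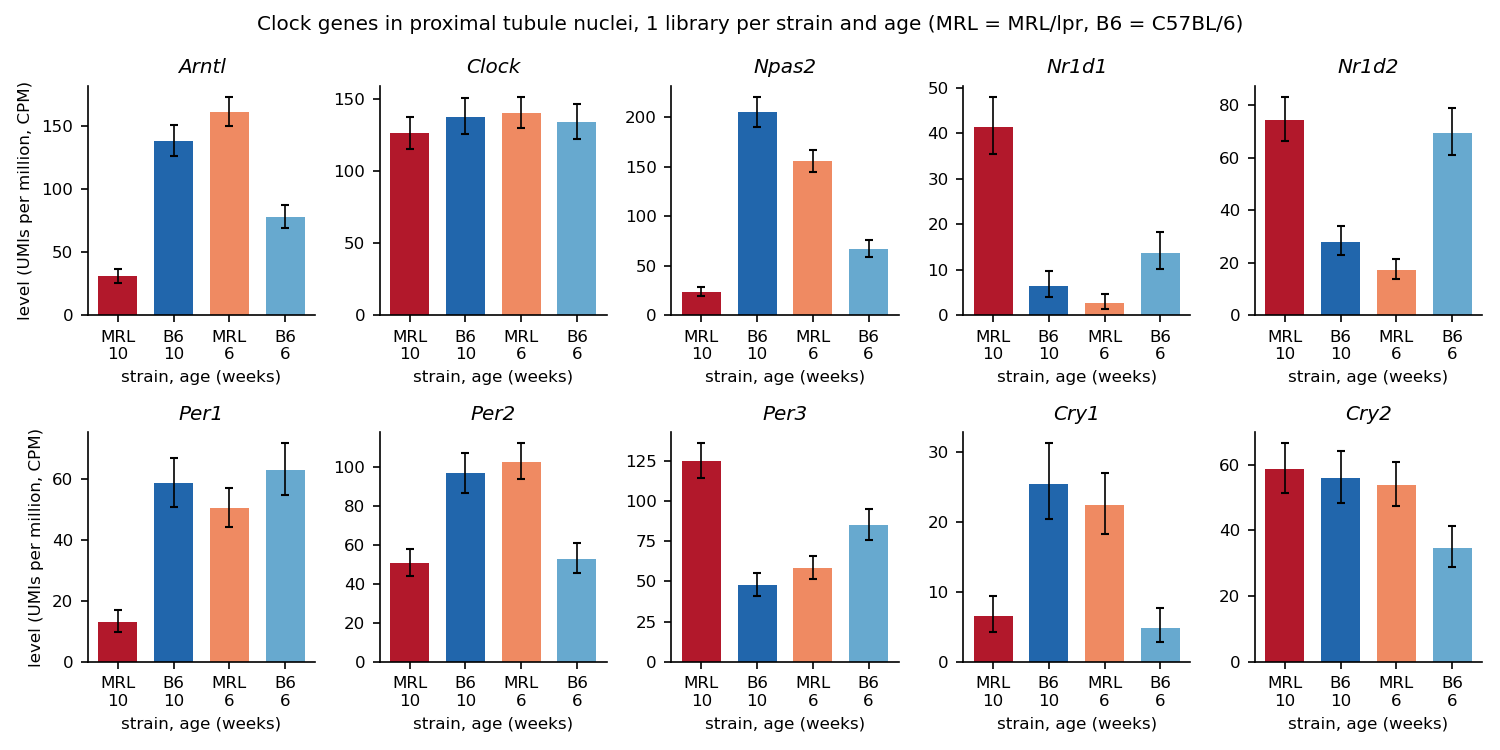
Levels of the 10 clock genes in proximal tubule nuclei in CPM (vertical axes, each from 0), 1 bar per library with its exact 95% Poisson interval. Arntl and Npas2 were lowest and Nr1d1 highest in MRL/lpr at 10 weeks (30.8, 23.6 and 41.4 CPM), and Clock stayed between 126 and 141 CPM.

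The 3 Period genes, whose proteins form the repressor complex with the cryptochromes, did not share a pattern. Per1, which also answers glucocorticoids and other acute signals, had 13.0 CPM in MRL/lpr at 10 weeks, 58.5 in C57BL/6 at 10 weeks, 50.3 in MRL/lpr at 6 weeks and 62.8 in C57BL/6 at 6 weeks. MRL/lpr at 10 weeks stood alone for Per1, 4.50-fold below C57BL/6 of its age (3.32 to 6.19), and the other 3 libraries lay within 1.25-fold of each other. Per2 had 50.7 CPM in MRL/lpr at 10 weeks, 96.8 in C57BL/6 at 10 weeks, 103 in MRL/lpr at 6 weeks and 52.9 in C57BL/6 at 6 weeks. It fell into a high and a low pair of libraries, 1.91-fold lower in MRL/lpr at 10 weeks (1.60 to 2.27) and 1.94-fold higher in MRL/lpr at 6 weeks (1.64 to 2.31), both short of 2-fold. Per3 had 125 CPM in MRL/lpr at 10 weeks, 47.6 in C57BL/6 at 10 weeks, 58.3 in MRL/lpr at 6 weeks and 85.0 in C57BL/6 at 6 weeks. It was 2.62-fold higher in MRL/lpr at 10 weeks (2.20 to 3.14) and 1.46-fold lower in MRL/lpr at 6 weeks (1.23 to 1.72). The number of Per3 UMIs for each Per1 UMI was 9.61 in MRL/lpr at 10 weeks (7.25 to 13.0), against 0.813 to 1.35 in the other 3 libraries.

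The cryptochromes repress BMAL1 and its partners. Cry1 shared its highest libraries with Npas2, and Cry2 varied less. Cry1 had 27 UMIs in MRL/lpr at 10 weeks, 91 in C57BL/6 at 10 weeks, 106 in MRL/lpr at 6 weeks and 17 in C57BL/6 at 6 weeks. It was 3.92-fold lower in MRL/lpr at 10 weeks (2.53 to 6.27) and 4.68-fold higher in MRL/lpr at 6 weeks (2.79 to 8.33). Cry2 had 58.7 CPM in MRL/lpr at 10 weeks, 55.9 in C57BL/6 at 10 weeks, 53.9 in MRL/lpr at 6 weeks and 34.6 in C57BL/6 at 6 weeks. Only the library of C57BL/6 at 6 weeks stood lower, and no Cry2 ratio reached 2-fold in the proximal tubule.

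Between ages, 8 of 10 members were at least 2-fold apart in the proximal tubule of MRL/lpr, against 5.03% of all genes, and 4 of 10 in C57BL/6, against 4.45%. In MRL/lpr at 10 weeks, against MRL/lpr at 6 weeks, Nr1d1, Nr1d2 and Per3 were higher, and Arntl, Npas2, Per1, Per2 and Cry1 were lower, with Arntl 5.25-fold lower (4.35 to 6.38). In C57BL/6 at 10 weeks, against C57BL/6 at 6 weeks, Npas2 and Cry1 were higher and Nr1d1 and Nr1d2 lower, each opposite to its direction in MRL/lpr. Per1 was not reversed, with a log2 age ratio of -1.94 in MRL/lpr and -0.10 in C57BL/6. Arntl was there 1.77-fold higher (1.53 to 2.06). The strain and age comparisons share libraries, so they are not independent of each other.

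The ratio of Arntl to Nr1d1 UMIs within a class of a library does not depend on depth or scaling, and it places the libraries in an order. In the proximal tubule it was 0.744 in MRL/lpr at 10 weeks (0.587 to 0.941), 21.5 in C57BL/6 at 10 weeks (14.1 to 34.2), 58.8 in MRL/lpr at 6 weeks (34.2 to 111) and 5.65 in C57BL/6 at 6 weeks (4.16 to 7.83). MRL/lpr held both the lowest and the highest ratio, and the C57BL/6 libraries lay between. MRL/lpr at 10 weeks had the lowest ratio in all 5 classes, 0.750 in thick ascending limb, 1.35 in distal tubule, 1.33 in collecting duct and 2.33 in endothelium. The order of the other libraries was as in the proximal tubule in distal tubule and collecting duct, while C57BL/6 at 10 weeks came first in thick ascending limb and C57BL/6 at 6 weeks in endothelium. Outside the proximal tubule Nr1d1 had at most 17 UMIs in a library, so those orders rest on few counts. The ratio of Cry1 to Nr1d1 gave the same order in the proximal tubule, with 0.157 in MRL/lpr at 10 weeks, 3.96 in C57BL/6 at 10 weeks, 8.15 in MRL/lpr at 6 weeks and 0.347 in C57BL/6 at 6 weeks. An order of ratios is not an hour of the day, because each group was sampled once.

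**Figure D2:**
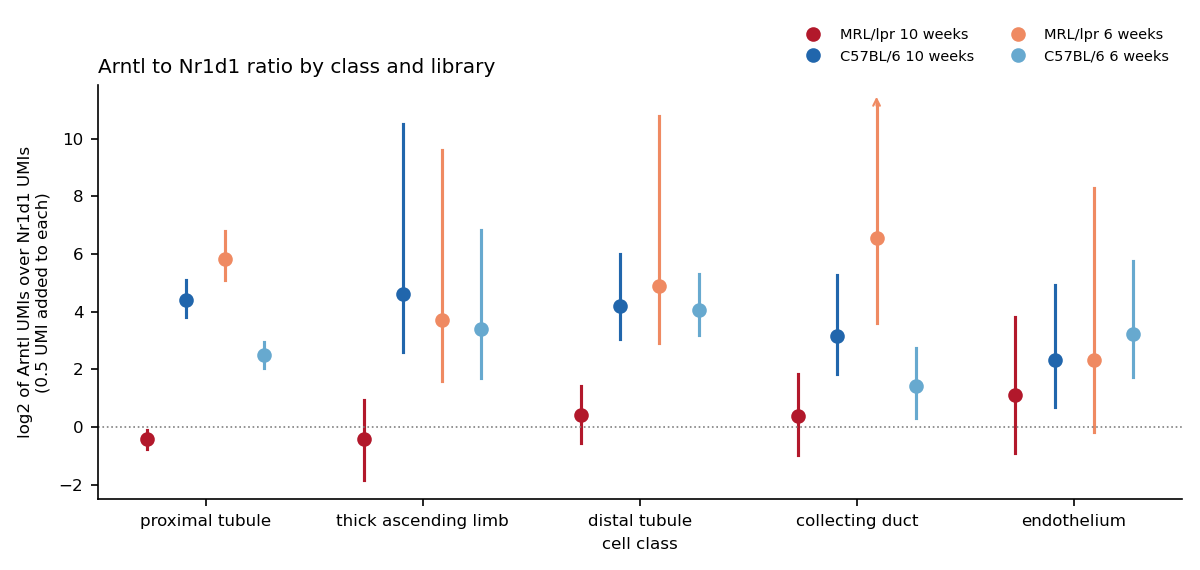
Log2 of Arntl UMIs over Nr1d1 UMIs, with 0.5 UMI added to each (vertical axis), for each class and library; points are the values and lines the 95% counting intervals, an arrow marking an interval with no upper bound. MRL/lpr at 10 weeks is the lowest point in every class, at -0.42 in the proximal tubule against 5.83 in MRL/lpr at 6 weeks.

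In the other 4 classes, 20 of the 40 pairs of a member and a class had enough UMIs. At 10 weeks 12 of the 20 pairs were at least 2-fold apart between strains, against 9.21% of 23257 gene and class pairs, and 11 of the 20 were lower in MRL/lpr by that much, against 5.06% of pairs. At 6 weeks 5 of 20 were at least 2-fold apart in either direction, against 8.03%. Of these, 3 were lower in MRL/lpr, against 4.42% of all pairs, and 2 were higher, against 3.6%. For 3 pairs, Npas2 and Per2 in distal tubule and Per2 in collecting duct, the strain ratio was at least 2-fold in opposite directions at the 2 ages, against 0.146% of pairs. With stricter marker minimums only Per2 in distal tubule did so. At that setting 7 pairs were apart at 10 weeks and 3 at 6 weeks, of 15 compared. The share of all gene and class pairs at that setting is not given here, so these counts cannot be set against it. With doublets kept, Npas2 in distal tubule did not. Between ages 4 of 20 pairs were apart in MRL/lpr, against 5.83%, and 6 of 20 in C57BL/6, against 3.91%.

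Arntl at 10 weeks was at least 2-fold lower in MRL/lpr in every class but endothelium, where the interval of its ratio includes 1 (0.244 to 1.77). At 6 weeks its strain ratio differed between segments. In distal tubule, which reabsorbs sodium and calcium, it had 23 UMIs in MRL/lpr at 10 weeks, 101 in C57BL/6 at 10 weeks, 44 in MRL/lpr at 6 weeks and 159 in C57BL/6 at 6 weeks. At 6 weeks it was thus 2.75-fold lower in MRL/lpr in distal tubule (1.95 to 3.93), where the proximal tubule had it 2.07-fold higher. The log2 strain ratio at 6 weeks in distal tubule minus that in proximal tubule was -2.49 (-3.01 to -1.98). Of the 8364 genes compared in both classes, 0.335% were further apart than Arntl, and 8 genes (0.0956%) had strain ratios of 2-fold or more that were opposite in the 2 classes, Arntl and Npas2 among them.

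In collecting duct Arntl had the direction of the proximal tubule but fell short of 2-fold, with a log2 strain ratio of 0.73 at 6 weeks. It had 163 CPM (47 UMIs) in MRL/lpr at 6 weeks and 97.7 CPM (25 UMIs) in C57BL/6 at 6 weeks. In thick ascending limb it had 76.3 CPM in MRL/lpr at 6 weeks and 122 in C57BL/6 at 6 weeks, and in endothelium 49.8 and 83.1 CPM in the same order. The intervals of both ratios include 1 (0.328 to 1.18 in thick ascending limb and 0.223 to 1.38 in endothelium). Within distal tubule, nuclei with Slc12a3, the thiazide-sensitive cotransporter, as leading marker had 73.7 CPM of Arntl in MRL/lpr at 6 weeks and 180.4 in C57BL/6 at 6 weeks. The other distal nuclei had 68.1 CPM in MRL/lpr at 6 weeks and 208 in C57BL/6 at 6 weeks, so the direction was the same in both kinds. The level of the library of C57BL/6 at 6 weeks was 2.48 times as high in distal as in proximal tubule (2.03 to 3.03), while that of MRL/lpr at 6 weeks was 2.29-fold lower in distal than in proximal tubule (1.69 to 3.18). Free proximal tubule RNA, judged from 6 genes of that segment that did not set the classes, was 9.78% of its proximal level in distal tubule of MRL/lpr at 6 weeks and 8.71% in that of C57BL/6 at 6 weeks, enough for 15.8 and 6.79 CPM of Arntl. The mitochondrial share of UMIs turned between distal and proximal tubule as Arntl did, but not in collecting duct. It was 0.193% in MRL/lpr at 6 weeks and 0.245% in C57BL/6 at 6 weeks in distal tubule, beside 0.281% in MRL/lpr at 6 weeks and 0.215% in C57BL/6 at 6 weeks in proximal tubule. In collecting duct it was 0.200% in MRL/lpr at 6 weeks and 0.219% in C57BL/6 at 6 weeks, where Arntl was higher in MRL/lpr. In thick ascending limb and endothelium at 6 weeks both the share and Arntl were lower in MRL/lpr. The ribosomal protein share was 1.12% in MRL/lpr at 6 weeks and 1.21% in C57BL/6 at 6 weeks in distal tubule, beside 2.27% in MRL/lpr at 6 weeks and 1.94% in C57BL/6 at 6 weeks in proximal tubule. Their part in the Arntl difference was not tested.

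**Figure D3:**
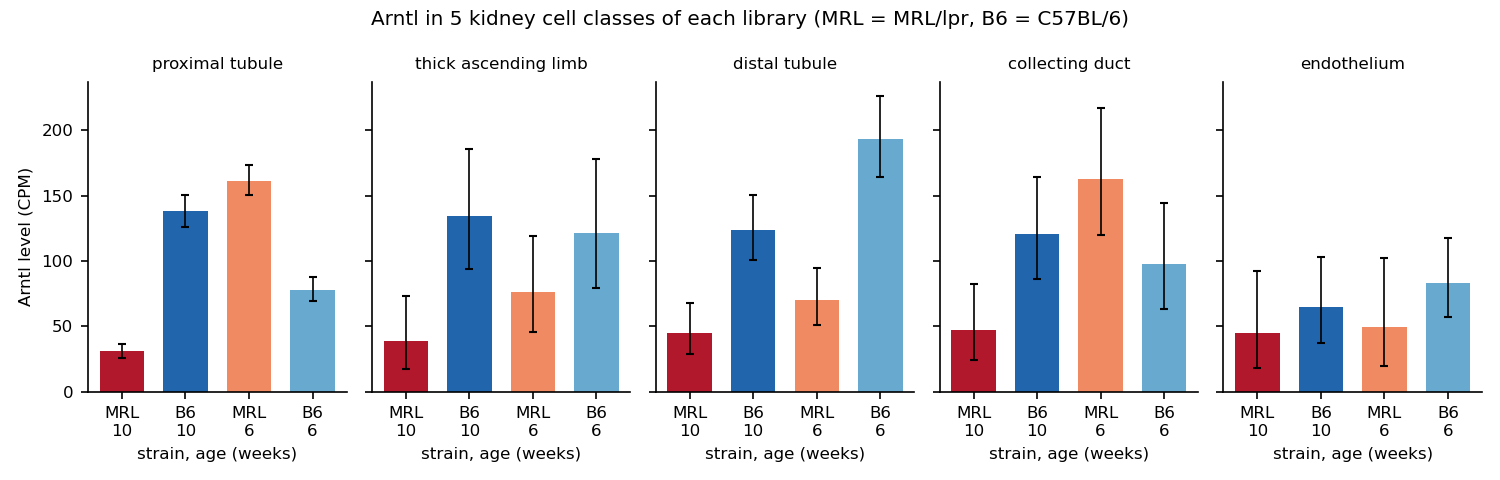
Arntl level in CPM (vertical axis, from 0) in 5 kidney classes, 1 bar per library with its exact 95% Poisson interval. At 6 weeks the MRL/lpr bar is above the C57BL/6 bar in proximal tubule (162 and 78.0 CPM) and below it in distal tubule (70.5 and 194 CPM).

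How far Npas2 in proximal tubule stood above its distal level differed between libraries. Its level in C57BL/6 at 10 weeks was 23.9-fold lower in distal than in proximal tubule (11.5 to 59.5), and in MRL/lpr at 6 weeks 9.71-fold lower (5.25 to 20.3). The gap was smaller in MRL/lpr at 10 weeks, with 23.6 CPM in proximal and 17.7 CPM in distal tubule. In C57BL/6 at 6 weeks too it was smaller, where Npas2 had 66.7 CPM in proximal and 35.3 CPM in distal tubule. In distal tubule Npas2 had 17.7 CPM in MRL/lpr at 10 weeks, 8.60 in C57BL/6 at 10 weeks, 16.0 in MRL/lpr at 6 weeks and 35.3 in C57BL/6 at 6 weeks. Free proximal tubule RNA alone would give 2.03, 13.8, 15.2 and 5.81 CPM in the same order, so the level in C57BL/6 at 10 weeks lay below that background and the level in MRL/lpr at 6 weeks near it. Each of the opposite strain ratios of Npas2 in distal tubule thus has a library below or near that estimated background. With that free RNA removed, Npas2 had 17.1 CPM in MRL/lpr and 0 in C57BL/6 at 10 weeks. At 6 weeks it had 0.901 CPM in MRL/lpr and 32.3 in C57BL/6. The strain ratios in distal tubule stayed opposite, and the part of free RNA in them was not tested. The log2 strain ratio there at 10 weeks was 1.02, and with doublets kept it was -0.85. In endothelium Npas2 had 0, 1, 4 and 1 UMIs in MRL/lpr at 10 weeks, C57BL/6 at 10 weeks, MRL/lpr at 6 weeks and C57BL/6 at 6 weeks. Clock, in contrast, had 121 to 213 CPM in the 4 other classes, where free RNA would give 8.02 to 21.4 CPM. Its level in thick ascending limb was above that in proximal tubule in all 4 libraries, by 1.40-fold in MRL/lpr at 6 weeks (1.02 to 1.87) to 1.54-fold in C57BL/6 at 10 weeks (1.15 to 2.03), and the interval left out 1 in each.

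**Figure D4:**
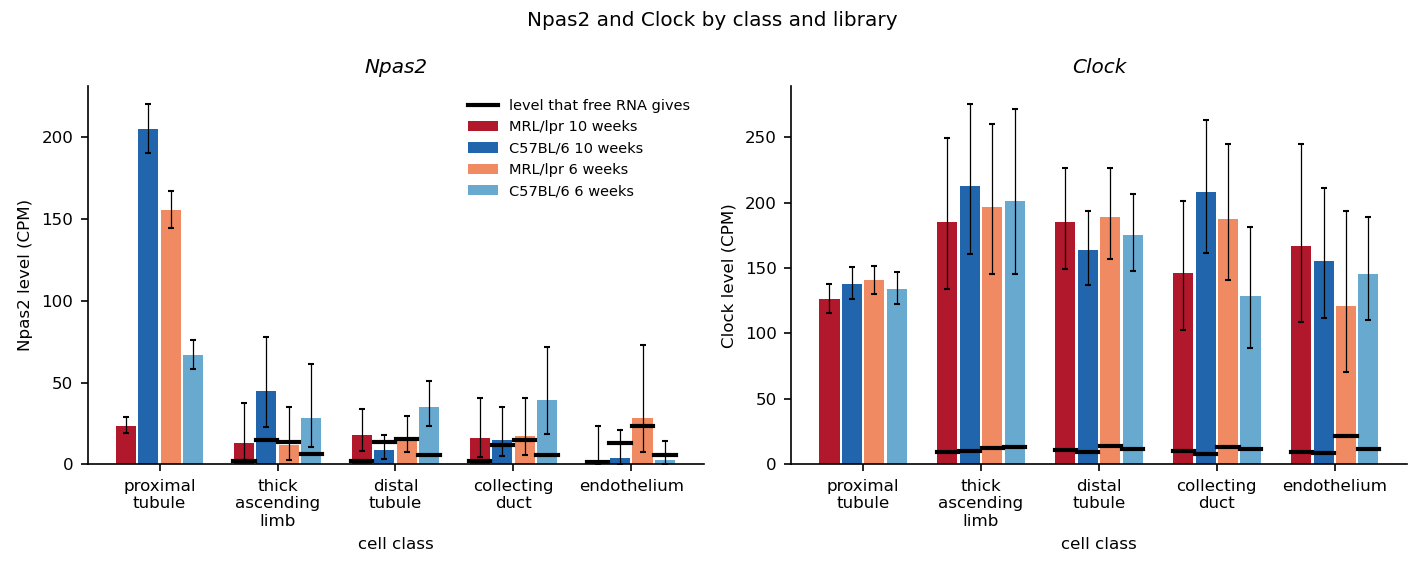
Npas2 (left) and Clock (right) level in CPM (vertical axes, from 0) by class and library, with exact 95% Poisson intervals; black lines mark the level that free proximal tubule RNA would give. Npas2 reached 205 CPM in proximal tubule and at most 44.7 CPM elsewhere, while Clock had 121 CPM or more in every class and library.

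Per2 had enough UMIs in distal tubule and collecting duct. In distal tubule it had 64.9 CPM in MRL/lpr at 10 weeks, 139 in C57BL/6 at 10 weeks, 133 in MRL/lpr at 6 weeks and 56.0 in C57BL/6 at 6 weeks, and in collecting duct 59.3, 136, 79.8 and 35.2 CPM in the same order. As in proximal tubule, MRL/lpr was lower at 10 weeks and higher at 6 weeks in both. The distal minus proximal difference of its log2 strain ratio was -0.15 at 10 weeks (-0.76 to 0.46) and 0.29 at 6 weeks (-0.28 to 0.86). In thick ascending limb Per2 had 7 UMIs in MRL/lpr at 10 weeks, 6 in C57BL/6 at 10 weeks, 10 in MRL/lpr at 6 weeks and 8 in C57BL/6 at 6 weeks, too few to be compared. The level in C57BL/6 at 10 weeks was 22.4 CPM there, where free proximal tubule RNA alone would give 7.02 CPM.

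Per1 was lower in MRL/lpr than in C57BL/6 at 10 weeks in all 4 other classes. Distal tubule had 25.6 CPM in MRL/lpr (13 UMIs) and 59.0 in C57BL/6 (48 UMIs). Endothelium had 12.8 and 72.1 CPM in the same order, on only 2 and 19 UMIs. In thick ascending limb MRL/lpr at 10 weeks did not stand alone, with 30.1 CPM beside 28.1 in MRL/lpr at 6 weeks, 7 UMIs each.

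Per3 was the member whose strain ratio at 10 weeks turned between proximal tubule and endothelium. Endothelium had 51.4 CPM of Per3 in MRL/lpr at 10 weeks and 121 in C57BL/6 at 10 weeks, where proximal tubule had 125 and 47.6 CPM. Distal tubule had 53.1 CPM in MRL/lpr at 10 weeks and 83.5 in C57BL/6 at 10 weeks, with an interval that includes 1 (0.391 to 1.01). The age ratio of Per3 in C57BL/6 also differed between segments. At 10 weeks, against 6 weeks, it was 2.14-fold higher in distal tubule (1.39 to 3.37) and 1.79-fold lower in proximal tubule (1.48 to 2.17). The distal minus proximal difference of these log2 age ratios was 1.92 (1.26 to 2.58).

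The remaining members were counted less often outside the proximal tubule. Nr1d1 had 12 UMIs in thick ascending limb of MRL/lpr at 10 weeks, 1 in C57BL/6 at 10 weeks, 1 in MRL/lpr at 6 weeks and 2 in C57BL/6 at 6 weeks, and in distal tubule 17, 5, 1 and 9 in the same order. In collecting duct it had 9, 4, 0 and 9 UMIs and in endothelium 3, 3, 1 and 3. MRL/lpr at 10 weeks was thus highest in the tubular classes except collecting duct, where C57BL/6 at 6 weeks had the same count. Cry2 in distal tubule had 6 UMIs in MRL/lpr at 10 weeks, 36 in C57BL/6 at 10 weeks, 15 in MRL/lpr at 6 weeks and 15 in C57BL/6 at 6 weeks. Cry1 had 0, 15, 19 and 10 UMIs there in the same order. For the 0 UMIs of MRL/lpr at 10 weeks, the floor of 3 UMIs used here for such counts is 5.90 CPM. Nr1d2 in distal tubule had 55.0 CPM in MRL/lpr at 10 weeks and 22.4 in MRL/lpr at 6 weeks, with both C57BL/6 libraries between.

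**Figure D5:**
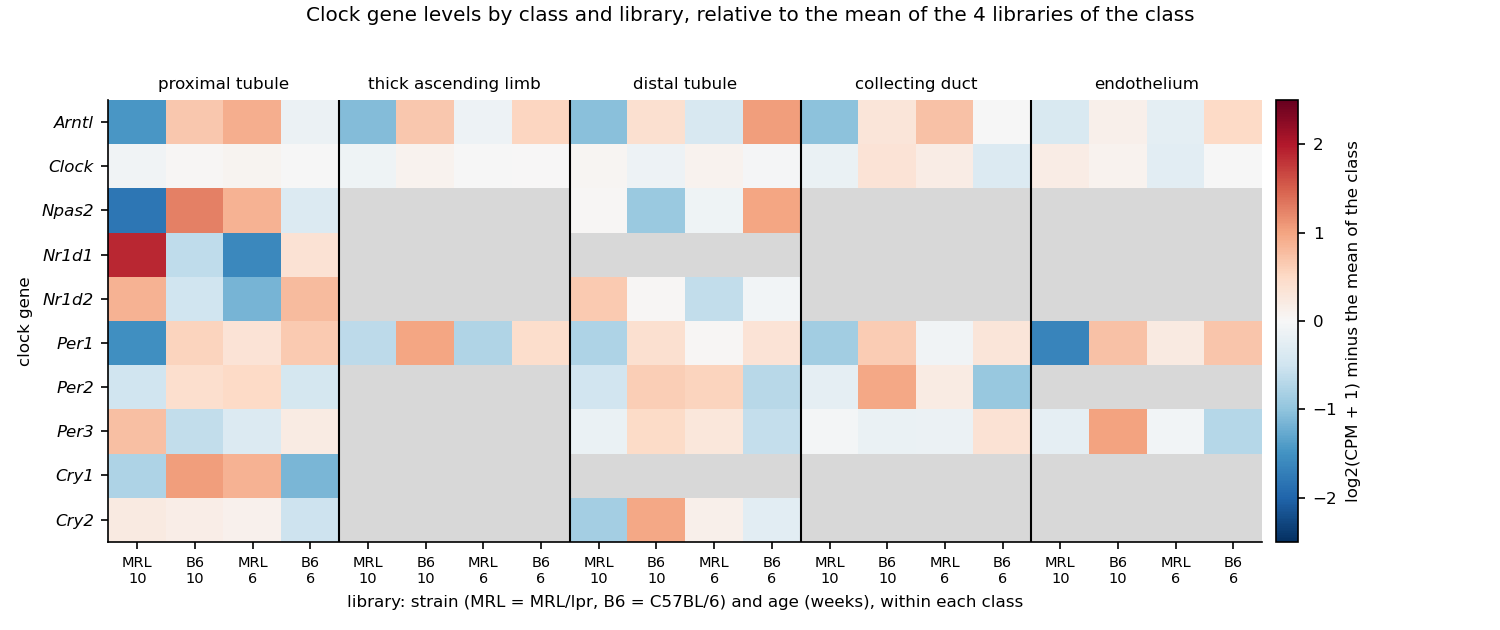
Log2 (CPM + 1) of each clock gene (rows) in each class and library (columns), minus the mean of the 4 libraries of that class; red is above and blue below that mean, and grey marks pairs of a gene and a class with under 50 UMIs. Clock stays pale in all classes, and Arntl in distal tubule is highest in C57BL/6 at 6 weeks (194 CPM).

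Of 20 further clock-associated genes, 17 were compared in the proximal tubule, with 3 in MRL/lpr at 10 weeks above the C57BL/6 level by 2-fold or more, against 6.55% of all genes compared there, and 2 below it, against 4.07%. At 6 weeks 1 was above by 2-fold or more, against 4.69% of all genes, and 0 were below by that much, against 4.28%. The count at 6 weeks is thus near the share of all genes. Dbp, a direct BMAL1 target that acts through D-boxes, had 270 UMIs in MRL/lpr at 10 weeks, 28 in C57BL/6 at 10 weeks, 56 in MRL/lpr at 6 weeks and 47 in C57BL/6 at 6 weeks. Ciart, a repressor of the BMAL1 pair, had 9.86 CPM in MRL/lpr at 10 weeks and 3.92 in C57BL/6 at 10 weeks. Nfil3, the repressor at D-boxes, had 5.53 CPM in MRL/lpr at 10 weeks and 20.1 to 22.2 CPM in the other libraries, so it stood with Per1.

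Some genes that answer glucocorticoids were low in MRL/lpr at 10 weeks, as Per1 was, and their part in its level was not tested. Of 12 such genes, with Per1 itself among them, 6 were below the C57BL/6 level by 2-fold or more in proximal tubule of MRL/lpr at 10 weeks, against 4.07% of all genes, and 2 were above it, against 6.55%. Their median log2 ratio was -1.16 beside 0.06 over all genes. Summed, the 12 genes had 2683 CPM in MRL/lpr at 10 weeks and 3014 CPM in C57BL/6 at 10 weeks. Sgk1 had 135 UMIs in MRL/lpr at 10 weeks, 1469 in C57BL/6 at 10 weeks, 1388 in MRL/lpr at 6 weeks and 1407 in C57BL/6 at 6 weeks, and Tsc22d3 had 221, 625, 1099 and 608 in the same order. At 6 weeks 0 of the 12 were higher in MRL/lpr by 2-fold or more, against 4.69% of all genes, and 3 were lower by that much, against 4.28%. Of 12 early response genes, 6 were compared. In MRL/lpr at 10 weeks 4 were higher by 2-fold or more, against 6.55% of all genes, and 1 was lower by that much, against 4.07%. The summed level of these 12 genes went the other way, with 284 CPM in MRL/lpr at 10 weeks and 338.5 CPM in C57BL/6 at 10 weeks. The share of mitochondrially encoded UMIs in the proximal tubule was 0.103% in MRL/lpr at 10 weeks, 0.234% in C57BL/6 at 10 weeks, 0.281% in MRL/lpr at 6 weeks and 0.215% in C57BL/6 at 6 weeks, the order of Arntl. The share of ribosomal protein UMIs was 1.23, 1.74, 2.27 and 1.94% in the same order, and the part of either in the clock values was not tested.

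Over 20 values (5 classes of 4 libraries), the genes whose log2 (CPM + 1) ran most like that of Arntl, out of 2976 genes with enough UMIs in every class, were mt-Co3 (r = 0.914), mt-Nd4 (0.889), mt-Atp6 (0.881), mt-Cytb (0.869), Rpl10a (0.866), mt-Co1 (0.864), Rpl36 (0.849) and Hsp90ab1 (0.848). Among those that ran most against it were Pde1c (-0.787), Apc (-0.767), Nr3c2 (-0.757), Gstt2 (-0.731), Exoc6 (-0.714), Ints2 (-0.711) and Dock9 (-0.711). Values were centred within each class, the 5 classes of a library share its depth and animals, and Pearson's r is given here as a description. Of the clock genes only Arntl, Clock and Per1 had enough UMIs in every class to enter.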

How the data were processed

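Per the file headers, the deposited matrices are Cell Ranger 5.0.0 output, while the submitters' processing notes name version 3.1.0. Each deposited value is a UMI count of 1 gene in 1 barcode, which the authors' Cell Ranger run made from the reads, per the file headers. The sources used here state neither the genome build nor whether intronic reads were counted, so precursor RNA may be included. The 10 genes, the marker and gene lists and the comparisons were chosen with earlier results of these data known. A barcode had to have 200 genes or more and at most 10% of its UMIs from mitochondrial genes. Doublets were called by Scrublet (scanpy 1.11.5), with 0.8% expected for every 1000 barcodes. Its threshold called 0 in MRL/lpr at 6 weeks, so the 702 top scores were removed there, beside 473, 751 and 863 doublets in MRL/lpr at 10 weeks, C57BL/6 at 10 weeks and C57BL/6 at 6 weeks. A nucleus took a class when it had at least 3 marker UMIs and at least 60% of them were of that class. Counts were summed per class and library and scaled to CPM, with intervals from scipy 1.17.1. Log2 ratios and the 2-fold counts carry a prior of 0.5 UMI, while folds and their intervals carry none. The named genes are the 10 members, the fixed gene lists and the 8 genes most like and least like Arntl. Some genes that this rule names are not reported here. The ratio and its interval were tested on simulated counts. Alternatives were other class and UMI minimums, kept doublets, removal of free RNA and other scalings.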

Additional observations from a re-analysis of the deposited data

Results flagged for a closer look

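In the proximal tubule the log2 strain ratio (MRL/lpr over C57BL/6) at 10 weeks minus that at 6 weeks was -3.21 for Arntl, -4.33 for Npas2, 4.95 for Nr1d1, 3.40 for Nr1d2 and -4.14 for Cry1. These 5 genes stand out because the strains differed in opposite directions at the 2 ages. With 1 library per strain and age the difference was not tested against the spread between mice. The counting intervals were -3.55 to -2.87 for Arntl and 3.88 to 6.01 for Nr1d1.

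The log2 strain ratio of Arntl at 6 weeks in distal tubule minus that in proximal tubule was -2.49, because MRL/lpr was lower than C57BL/6 in distal tubule and higher in proximal tubule. Both classes come from the same libraries, and the difference was not tested.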

How the results depend on the processing

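Counts of clock genes at least 2-fold apart stayed within 1.5 times the values given in 82 of 100 recalculations. All 80 recalculated Arntl to Nr1d1 ratios kept their values within counting error. Some recalculations in the proximal tubule could not change a value. Every member passes the lower UMI minimums there, and free proximal tubule RNA was not subtracted from that class. In the proximal tubule the exception among the counts was the age comparison in C57BL/6, with 8 genes when 1.5-fold was counted. All other exceptions were in the 4 other classes together. With stricter marker minimums, at least 5 marker UMIs and 80% of them from 1 class, 7 pairs were apart at 10 weeks, 3 at 6 weeks and 1 in opposite directions. With doublets kept, 7 were apart between ages in MRL/lpr. With a minimum of 20 UMIs, 22 were apart at 10 weeks, 13 at 6 weeks and 9 in opposite directions. Between ages 13 were then apart in MRL/lpr and 14 in C57BL/6. With no filter on low counts, 24 were apart at 10 weeks, 15 at 6 weeks and 10 in opposite directions. Between ages 17 were then apart in MRL/lpr and 16 in C57BL/6. More pairs, with fewer UMIs, enter at both of these settings. With 1.5-fold counted, 10 were apart at 6 weeks, 9 between ages in MRL/lpr and 6 in opposite directions. The share of all gene and class pairs at these other settings is not given here, so these counts cannot be set against it. Of 864 recalculated single ratios 854 stayed within counting error, 9 moved further, and 1 turned: the log2 strain ratio of Npas2 in distal tubule at 10 weeks, 1.02 as given, was -0.85 with doublets kept; the cause was not tested. The split of Arntl within distal tubule, collecting duct and proximal tubule was chosen after seeing the data. No paired analysis was possible because each strain and age has 1 library, and for the same reason no library could be left out. Outside the proximal tubule Nr1d1, Cry1 and Npas2 are limited by depth.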
